A study of Mus musculus with 17 samples.

Results

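Foxo1, Foxo3, Klf2, Inpp5d, Pik3r1, Ccng2, Sesn1, Sesn3 and Tsc22d3 were followed in germinal centre (GC) B cells of the mouse lymph node. They were chosen by symbol, as genes of the FOXO pathway and its PI3K brakes, with earlier results of these data known. They make up 9 of the 21848 genes in the single-cell count matrices. B1-8hi B cells, which carry a heavy chain specific for the hapten NP, (Igh B1-8hi, CD45.2) were transferred into ovalbumin-primed CD45.1 hosts that were then immunized with NP-OVA in the footpad. At day 7 the mice received anti-DEC-OVA, an antibody that delivers ovalbumin to B cells carrying the receptor DEC-205 and so draws T cell help to them, or were left untreated. The groups were untreated mice at day 7 (0 h, 9 mice), day 9 (48 h, 6 mice) and day 10 (72 h, 8 mice), and treated mice at 48 h (9 mice) and 72 h (7 mice). These 39 mice were multiplexed in 2 sequenced pools, a larger and a smaller experiment, and each group had mice in both. In a further experiment, B1-8hi cells carrying a DHB–tdTomato reporter of CDK2 activity from the Rosa26 locus were taken 72 h after anti-DEC-OVA and sorted by image into CDK2-hi cells (reporter in the cytoplasm) and CDK2-low cells (reporter in the nucleus). Each of 7 mice contributed to both sorted populations (2 further mice in the index of hashtags had no usable hashtag counts and were left out), and each population was sequenced as 1 library, so that library and population cannot be told apart. All groups were sorted as GC B cells, and all recipients were immunized in the same way. DEC-205 (Ly75) was present on a minor part of the transferred cells and deleted (Ly75-/-) in the rest. According to the paper, the time-course cells that it counted for mutations and profiled for expression were the DEC-205+ ones.

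FOXO1 and FOXO3 are transcription factors that PI3K signalling holds out of the nucleus through AKT, and in GC B cells FOXO1 is required for the dark zone programme. INPP5D (SHIP-1) is a phosphatase that removes the lipid product of PI3K, and PIK3R1 is the regulatory subunit that stabilizes and restrains the catalytic subunits. KLF2 keeps lymphocytes quiescent and controls their homing, CCNG2 is an atypical cyclin linked to cell cycle exit, SESN1 and SESN3 are stress-induced inhibitors of mTORC1, and TSC22D3 (GILZ) is a leucine zipper protein induced by glucocorticoids and by FOXO3.

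The region before the start of 3 of these genes is shown, because Foxo1 and Sesn3 were both lower in treated mice at 48 h and both higher in CDK2-low cells, while Ccng2 was lower in CDK2-low cells. Each run is the 250 bases upstream of the canonical transcript, 5′ to 3′ on the gene's strand, in GRCm39 (mm39), the build of the count matrices. Capitals mark CCAAT or its complement ATTGG, a promoter box bound by the factor NF-Y, which was chosen after the sequences had been read. Foxo1 lies on chromosome 3 from 52175757 to 52260642, Ccng2 on chromosome 5 from 93415116 to 93424095 and Sesn3 on chromosome 9 from 14186363 to 14244397, all on the plus strand. The windows are chr3:52175507-52175756 for Foxo1, chr9:14187347-14187596 for Sesn3, where the canonical start lies inside the annotated gene, and chr5:93414866-93415115 for Ccng2.
Foxo1: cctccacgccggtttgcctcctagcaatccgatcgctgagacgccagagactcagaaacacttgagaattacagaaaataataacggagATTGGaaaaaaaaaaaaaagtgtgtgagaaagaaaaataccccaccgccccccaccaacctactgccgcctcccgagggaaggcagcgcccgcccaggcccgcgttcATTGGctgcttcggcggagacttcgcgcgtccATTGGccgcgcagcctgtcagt
Sesn3: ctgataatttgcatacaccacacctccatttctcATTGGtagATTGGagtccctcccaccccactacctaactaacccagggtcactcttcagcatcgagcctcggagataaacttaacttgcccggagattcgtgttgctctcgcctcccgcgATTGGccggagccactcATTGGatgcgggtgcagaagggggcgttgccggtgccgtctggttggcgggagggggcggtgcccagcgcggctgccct
Ccng2: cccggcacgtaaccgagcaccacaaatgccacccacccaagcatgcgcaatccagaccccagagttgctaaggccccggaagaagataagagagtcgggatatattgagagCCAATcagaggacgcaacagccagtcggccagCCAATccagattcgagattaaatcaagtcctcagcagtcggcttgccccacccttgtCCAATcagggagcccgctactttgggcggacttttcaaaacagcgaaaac
The box was matched on either strand 3 times in Foxo1, 4 times in Sesn3 and 3 times in Ccng2. It was present in the windows of 5 of the 9 genes (also Pik3r1 and Sesn1), against 36.5% of the 21770 promoters of protein-coding genes searched in the same way. The FOXO-type sequence GTAAACA, again on both strands, was in none of the 9 windows and in 2.72% of all promoters. Genes with opposite behaviour carried the box, and a match describes the letters only.

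Unique molecular identifiers (UMIs) were summed per mouse, and levels are given as CPM, the gene's share of all UMIs of that mouse's cells on the usual scale. Between 292 and 1045 cells and between 1984426 and 13373185 UMIs stood behind each mouse of the time course, and between 278 and 1721 cells behind each mouse of a CDK2 library. All 9 markers of GC B cells fixed for the check were detected in each of these mice. Genes of naive and memory B cells summed to 129 to 222 CPM in treated mice at 48 h and to 245 to 516 CPM in the other groups, and to 137 to 217 CPM in CDK2-hi and 397 to 624 CPM in CDK2-low cells. T cell genes summed to 49.7 to 67.7 CPM in treated mice at 48 h and to 69.2 to 109 CPM in the other time-course groups, and to 46.3 to 68.2 CPM in CDK2-hi and 63.8 to 155 CPM in CDK2-low cells, with up to 5 of 8 listed genes at 0 in a mouse. The part of either list in the results was not tested. The 2 time-course pools shared 43 cell barcodes and the 2 CDK2 pools shared 5. Median mitochondrial shares of UMIs were 2.17% to 2.53% in mice of the larger and 4.04% to 5.48% in mice of the smaller experiment. A limit of 10% per cell removed 332 of 13976 assigned cells in the larger and 3036 of 13187 in the smaller. The experiments differed in level, with Foxo1, Foxo3, Inpp5d, Pik3r1, Sesn1 and Sesn3 higher and Klf2, Ccng2 and Tsc22d3 lower on average in the smaller experiment, so that the fit carried a term for the experiment, and ranges over both experiments overlap more than ranges within each. A gene was called when edgeR's quasi-likelihood test gave a Benjamini-Hochberg adjusted p under 0.05 over all genes tested.

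At 48 h after anti-DEC-OVA both FOXO factors, Klf2, Pik3r1 and both sestrins, 6 of the 9 genes, took a smaller share of UMIs than in untreated mice. Klf2 fell by 43.1%, Foxo3 fell by 31.2%, and the other 4 fell by 12.2% to 16.5%. None of the 9 was called higher. Across all 10220 genes tested, 47.4% were called in this comparison, 26.3% higher and 21.1% lower. A change in the mix of cells and a smaller share of UMIs within cells cannot be told apart in sums over a mouse. The median log2 fold change of the 9 was -0.23, against 0.01 for all genes. Since the 9 were chosen with earlier results of these data known, their contrast with all genes is a description and not a test.

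Foxo1 spanned 199 to 247 CPM with a median of 211 in the 6 untreated mice at 48 h, and 151 to 211 CPM with a median of 167 in the 9 treated mice. The ranges overlapped over both experiments but not within either, with 199 to 214 against 151 to 179 CPM in the larger and 242 to 247 against 181 to 211 CPM in the smaller. Its log2 fold change was -0.26 ± 0.05 (SE, adjusted p = 0.000101). Foxo3 was a sparse transcript, counted 41 to 125 times per mouse in these groups. It spanned 7.71 to 11.8 CPM (median 10.2) without and 4.98 to 9.35 CPM (median 5.85) with treatment, for a log2 fold change of -0.54 ± 0.13 (adjusted p = 0.000507). Treated mice were lower within each experiment for Foxo3 as well, at 4.98 to 6.51 against 7.71 to 10.4 CPM in the larger and 6.66 to 9.35 against 10.3 to 11.8 CPM in the smaller. Neither factor was called in the smaller experiment alone (Foxo1 adjusted p = 0.0577, Foxo3 adjusted p = 0.219) or in S cells (0.346 and 0.728 as adjusted p), and Foxo3 was not called in G2–M cells (adjusted p = 0.265).

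Of the PI3K brakes, Pik3r1 spanned 58.6 to 86.1 CPM (median 61.8) in untreated and 46.5 to 70.6 CPM (median 54.4) in treated mice at 48 h, a log2 fold change of -0.19 ± 0.06 (adjusted p = 0.00715). This call was lost in 5 of 14 alternatives, which were B1-8hi pairings alone, no term for the experiment, the larger experiment alone, S cells and G2–M cells (adjusted p up to 0.696). The groups overlapped over both experiments and in the larger one, while in the smaller one all treated mice (62.1 to 70.6 CPM) lay under both untreated mice (81.9 and 86.1 CPM). The lipid phosphatase gene Inpp5d spanned 237 to 295 CPM (median 243) and 214 to 266 CPM (median 226), and its log2 fold change of -0.05 had a 95% interval from -0.12 to 0.02 (adjusted p = 0.274). Within each experiment all treated mice lay under all untreated mice for Inpp5d. The ranges were 214 to 236 against 237 to 245 CPM in the larger and 253 to 266 against 284 to 295 CPM in the smaller. As for all CPM ranges at 48 h, these are not scaled by TMM. Scaling by library size alone shifted the median log2 fold change of all genes at 48 h from 0.01 to -0.06. How many of all genes lacked overlap within each experiment was not computed. The 2 brakes thus sat on either side of the threshold, and a difference between them was not tested.

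Klf2 varied most between mice. It spanned 16.5 to 68.9 CPM (median 33.4) in the untreated and 9.78 to 24.5 CPM (median 18.9) in the treated mice at 48 h, a log2 fold change of -0.81 ± 0.20 (adjusted p = 0.00106). Most of this came from the larger experiment, where all 6 treated mice (15.4 to 24.5 CPM) lay under all 4 untreated mice (25.4 to 68.9 CPM). Fitted alone, the larger experiment gave -1.11 ± 0.22 (adjusted p = 0.000309) and the smaller one -0.20 ± 0.29 (adjusted p = 0.675).

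Among the stress-linked genes, Sesn3 spanned 85.7 to 129 CPM (median 99.7) in untreated and 72.7 to 94.3 CPM (median 81.8) in treated mice at 48 h, with a log2 fold change of -0.24 ± 0.06 (adjusted p = 0.000365) and no overlap within either experiment. Sesn1 spanned 41.2 to 57.3 CPM (median 50.9) and 31.0 to 58.2 CPM (median 37.0), for a log2 fold change of -0.22 ± 0.09 (adjusted p = 0.0341). As with Klf2, the Sesn1 difference stood in the larger experiment (-0.37, adjusted p = 0.00207) and not in the smaller one (-0.01, adjusted p = 0.953). Tsc22d3 (14.7 to 31.1 against 11 to 21.5 CPM, log2 fold change -0.23, adjusted p = 0.186) and Ccng2 (31.2 to 49.8 against 32.2 to 54.6 CPM, 0.14, adjusted p = 0.137) did not pass the test. Both pairs of ranges overlapped widely.

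**Figure D1:**
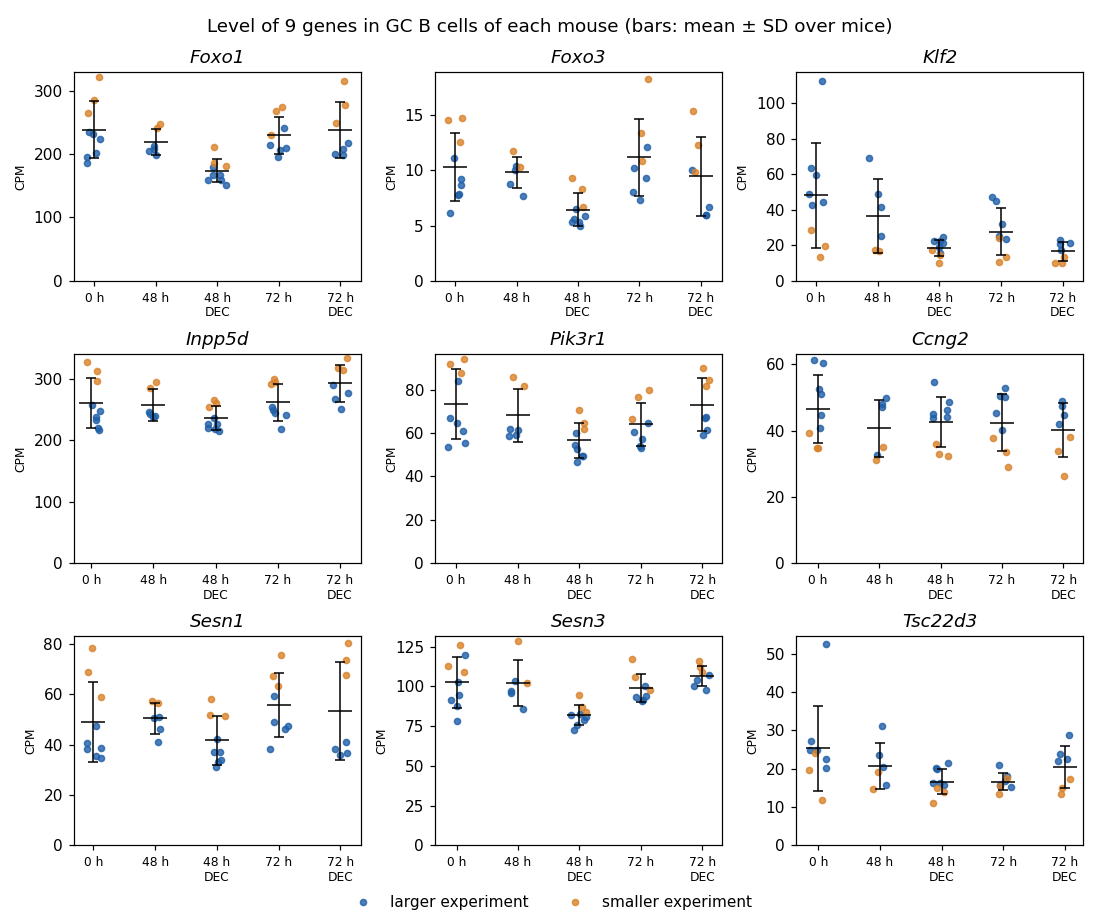
Level of each gene in CPM (vertical axis, from 0) by group (horizontal axis, hours after day 7, DEC for anti-DEC-OVA), with 1 point per mouse, blue for the larger and orange for the smaller experiment, and bars for the mean ± SD over mice. Treated mice at 48 h have the lowest mean for Foxo1 (174 CPM), Foxo3 (6.43 CPM), Pik3r1 (56.7 CPM) and Sesn3 (81.9 CPM), and the 2 experiments sit at different levels.

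CPM is a share of RNA, and the cells of treated mice at 48 h held more RNA in all, with medians of 10004 to 14467 UMIs per cell against 4687 to 9375 in the other time-course groups. Counted per cell, a scale added after the CPM results were seen, no gene of the 9 was lower in all treated mice than in all untreated mice at 48 h, and 5 (Foxo1, Inpp5d, Pik3r1, Sesn1 and Sesn3) were higher without overlap. The same counts over all genes were not computed, so these are not results particular to the 9. Foxo1 averaged 2.60 UMIs per cell in treated mice (2.41 to 2.80) and 1.83 in untreated mice (1.65 to 2.12). Klf2 averaged 0.284 UMIs per cell in treated and 0.315 in untreated mice, with overlapping ranges. The falls at 48 h are therefore falls relative to the rest of the transcriptome.

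The share of cells called G0–G1 from cell-cycle genes, none of which is among the 9, moved with treatment. It was 17.5% to 24.6% in treated mice at 48 h and 46.6% to 56.9% in untreated mice, and the share of G2–M cells was 39.2% to 47.7% against 22.7% to 33.5%. All 9 genes differed between phases in the 39 mice. In 8 of the 9 the level in CPM was higher in G0–G1 cells than in S and G2–M cells of the same mouse. Of 8883 genes tested, 83.8% were called in this comparison, 45.8% higher and 38.1% lower. Klf2 led with a log2 fold change of 2.13 ± 0.13, from a mean of 69.3 CPM in G0–G1 to 14.8 CPM in S and 17.2 CPM in G2–M cells. Foxo3 followed at 1.32 ± 0.08, then Tsc22d3 at 0.68, Foxo1 at 0.61, Pik3r1 at 0.45, Sesn3 at 0.29, Inpp5d at 0.26 and Sesn1 at 0.23. Ccng2 was the exception at -0.47 ± 0.05 (adjusted p = 7.25e-13). It averaged 34.4 CPM in G0–G1, 24.4 CPM in S and 64.0 CPM in G2–M cells. The G2–M level was the highest of the 3 in 39 of 39 mice. These differences between phases are in shares of RNA, and G0–G1 cells held less RNA in all. Medians per mouse were 2979.5 to 8478 UMIs per cell in G0–G1, 6348 to 16023 in S and 5488 to 19236 in G2–M cells. UMIs of the 9 genes per cell were not computed by phase, so a higher share need not mean more transcripts per cell.

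Within G0–G1 cells, none of the 9 genes was called at 48 h by edgeR or by DESeq2, with 1 at an unadjusted p under 0.05 (Sesn3, -0.19, adjusted p = 0.121), where 9.56% of 8931 genes were called, 4.79% higher and 4.77% lower. The fold change of Foxo1 shrank from -0.26 to -0.05 (95% interval -0.18 to 0.09) and that of Foxo3 from -0.54 to -0.12 (-0.50 to 0.26). That of Klf2 was 0.37 (-0.07 to 0.81). Within G2–M cells Foxo1 (-0.20, adjusted p = 0.0372), Klf2 (-0.81, adjusted p = 0.0187) and Sesn3 (-0.21, adjusted p = 0.029) were called lower, where 17.6% of genes were called, 9.61% higher and 8% lower. Within S cells the only call was a rise of Ccng2 (0.45 ± 0.15, adjusted p = 0.0376), where 11.4% of genes were called, 5.48% higher and 5.91% lower. The fits within S and G2–M cells were added after the data were seen.

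**Figure D2:**
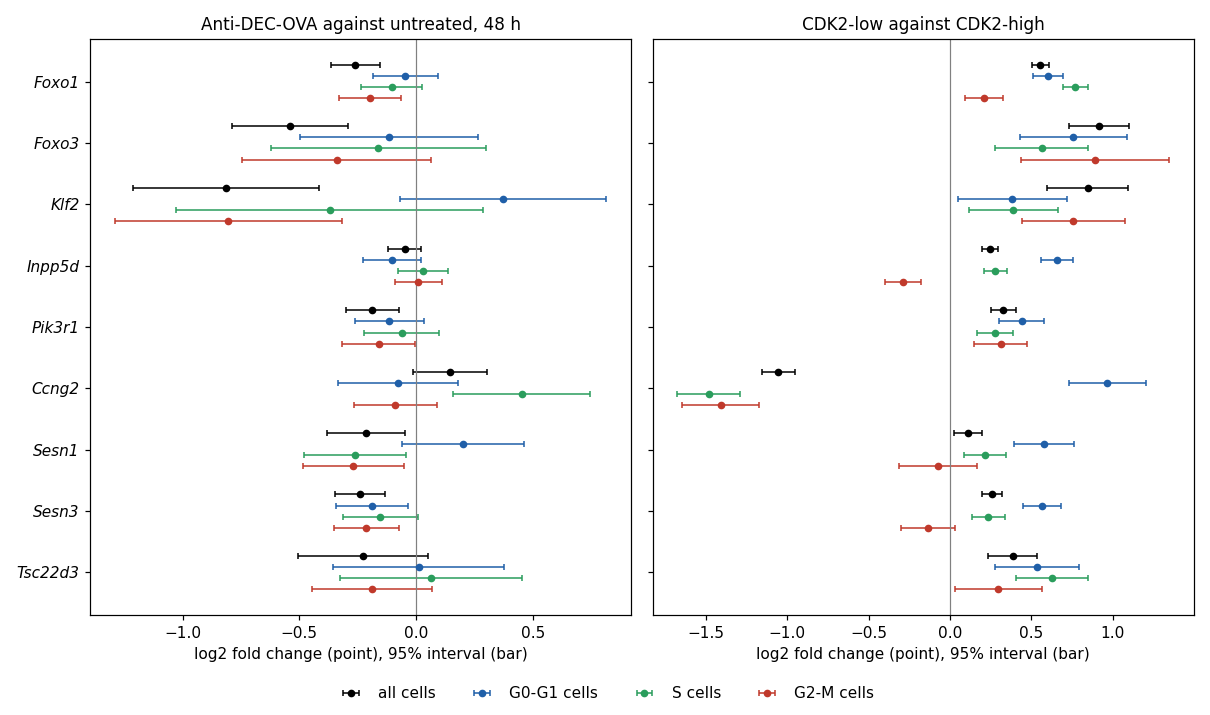
Log2 fold change (horizontal axis, points) with 95% intervals (bars) for each gene (vertical axis), in all cells and within G0–G1, S and G2–M cells, for treated against untreated mice at 48 h (left) and CDK2-low against CDK2-hi cells (right). At 48 h the Foxo1 estimate moves from -0.26 in all cells to -0.05 in G0–G1 cells, while between the CDK2 populations it stays above 0 in every phase and Ccng2 changes sign, from -1.05 in all cells to 0.97 in G0–G1 cells.

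At 72 h, Inpp5d was the 1 gene of the 9 called between treated and untreated mice, and it was higher. Of all genes 8.55% were called, 4.67% higher and 3.88% lower. It spanned 218 to 300 CPM (median 252) in the 8 untreated and 251 to 334 CPM (median 289) in the 7 treated mice, a log2 fold change of 0.14 ± 0.04 (adjusted p = 0.00876). The ranges overlapped over both experiments, but within the smaller one treated mice (315 to 334 CPM) lay above untreated mice (291 to 300 CPM). The call was lost in 4 of 15 alternatives, which were no term for the experiment, the smaller experiment alone, G2–M cells and G0–G1 cells. Foxo1 differed by 0.01 (95% interval -0.09 to 0.12, adjusted p = 0.941). Klf2 spanned 10.7 to 47.1 CPM (median 24.7) without and 10.1 to 23.1 CPM (median 17.6) with treatment, and its log2 fold change of -0.71 ± 0.25 missed the threshold (adjusted p = 0.0622).

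From 48 h to 72 h after anti-DEC-OVA, 5 of the 9 genes rose, where 49.1% of all genes were called, 22.3% higher and 26.8% lower. They were Foxo1 (0.31 ± 0.05, adjusted p = 4.8e-06), Foxo3 (0.38 ± 0.13, adjusted p = 0.0144), Inpp5d (0.19 ± 0.04, adjusted p = 2.3e-05), Pik3r1 (0.22 ± 0.06, adjusted p = 0.00142) and Sesn3 (0.26 ± 0.05, adjusted p = 7.99e-05). Sesn3 was the one gene whose ranges did not overlap over both experiments, with 72.7 to 94.3 CPM at 48 h and 97.6 to 116 CPM at 72 h. None of the 5 rises was called within G0–G1 cells. Foxo3 kept its call in 8 of 15 alternatives and lost it in each experiment alone, in B1-8hi pairings, with no term for the experiment and within each phase, with a value of -0.20 in G0–G1 cells. This comparison and that of treated with untreated mice at 48 h share the treated mice at 48 h, so the same low values enter both. The treatment effect itself differed between the times for 4 genes, where 31.5% of genes were called, 13% higher and 18.5% lower, namely Pik3r1 (0.34 ± 0.08, adjusted p = 0.00182), Sesn3 (0.33 ± 0.08, adjusted p = 0.00135), Foxo1 (0.27 ± 0.08, adjusted p = 0.00524) and Inpp5d (0.19 ± 0.05, adjusted p = 0.00378). None of these 4 was called within S cells or within G0–G1 cells, and 1 of them was called in the smaller experiment alone or with no term for the experiment.

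Within G0–G1 cells, Klf2 had its lowest mean of the 5 time-course groups at 72 h after treatment (25.2 CPM). G0–G1 cells of treated mice held 8.56 to 41.5 CPM (median 24.4) at 72 h, against 27.4 to 105 CPM (median 64.1) in untreated mice at 72 h and 45.7 to 132 CPM (median 79.4) in treated mice at 48 h. The first pair of ranges overlapped and the second did not. The log2 fold changes were -1.37 ± 0.27 (adjusted p = 0.000562) and -1.87 ± 0.27 (adjusted p = 7.5e-06), and no other gene of the 9 was called in either comparison, both added after the data were seen. Of all genes 9.25% were called in the first, 4.08% higher and 5.17% lower, and 5.49% in the second, 1.27% higher and 4.22% lower. Genes of naive and memory B cells summed to 245 to 364 CPM over all cells of the treated and 277 to 483 CPM over those of the untreated mice at 72 h.

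In untreated mice, no gene of the 9 was called between 0 h and 48 h, where 0.127% of genes were called (0.0587% higher, 0.0685% lower), or between 48 h and 72 h, where 0.157% were (0.127% higher, 0.0294% lower). At an unadjusted p under 0.05 there was 1 of the 9 (Ccng2) in the first comparison and 0 in the second, and DESeq2 called 0 in both. Between 0 h and 72 h, where 4.41% were called, 1.79% higher and 2.62% lower, Klf2 (-0.65 ± 0.20, adjusted p = 0.0489), Pik3r1 (-0.19 ± 0.06, adjusted p = 0.0416) and Tsc22d3 (-0.48 ± 0.14, adjusted p = 0.0455) passed the threshold. All 3 calls were lost without 1 mouse at 0 h, whose Tsc22d3 level of 52.4 CPM stood far from the 11.9 to 27.2 CPM of the other 8 and which held 112 CPM of Klf2 and 68.6% G0–G1 cells. Without it the adjusted p-values were 0.107, 0.111 and 0.0919, and of 15 alternatives the call was lost in 9 for Klf2, 14 for Pik3r1 and 10 for Tsc22d3.

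Ordered by mean CPM, treated mice at 48 h were lowest of the 5 groups for Foxo1, Foxo3, Inpp5d, Pik3r1, Sesn1, Sesn3 and Tsc22d3. The step to the next group up differed for Foxo1 (from untreated mice at 48 h), Foxo3 (from treated mice at 72 h) and Sesn3 (from untreated mice at 72 h, log2 difference 0.17, adjusted p = 0.00424), but not for Inpp5d (adjusted p = 0.274), Pik3r1 (adjusted p = 0.316), Sesn1 (adjusted p = 0.219) or Tsc22d3 (adjusted p = 0.782). For Tsc22d3 the means were 16.626 CPM in treated mice at 48 h and 16.637 CPM in untreated mice at 72 h. The fit, with its term for the experiment, put the untreated mice lower (log2 difference -0.05). How many of all genes were lowest in treated mice at 48 h was not computed. Inpp5d was highest in treated mice at 72 h (293 CPM), above untreated mice at 72 h (261 CPM). Klf2 ran from 48.1 CPM at 0 h through 36.5 and 27.6 CPM in untreated mice at 48 h and 72 h to 18.5 and 16.6 CPM in treated mice at 48 h and 72 h, and the one neighbouring step that differed lay between untreated mice at 72 h and treated mice at 48 h (0.48 ± 0.20, adjusted p = 0.041). Of the 10 pairs of groups, 6 differed for Klf2, 4 each for Foxo1, Foxo3, Inpp5d, Pik3r1 and Sesn3, 2 each for Sesn1 and Tsc22d3, and 0 for Ccng2.

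Between the CDK2 populations at 72 h after treatment, all 9 genes differed. Both FOXO factors, both brakes, Klf2, Sesn1, Sesn3 and Tsc22d3 were higher in CDK2-low cells and Ccng2 was lower, each in 7 of 7 mice. The background is high here, with 75.1% of 10125 genes called, 38.6% higher and 36.5% lower, and the median of the 9 genes was 0.33 against 0.03 for all genes. CPM ratios run above the fitted folds in this comparison, because scaling by library size alone shifted the median of all genes from 0.03 to 0.22 on the log2 scale, and on that scale too 8 of the 9 were higher and Ccng2 lower. The median mitochondrial share of UMIs was 2.97% to 3.42% in CDK2-hi and 3.35% to 3.88% in CDK2-low cells, and higher in the latter in 7 of 7 mice. Its part in the results was not tested.

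Foxo1 spanned 149 to 188 CPM (median 167) in CDK2-hi and 254 to 323 CPM (median 281) in CDK2-low cells, a log2 fold change of 0.55 ± 0.03 (adjusted p = 5.93e-16). Foxo3 spanned 4.87 to 8.21 CPM (median 5.52) and 10.4 to 15 CPM (median 12.3), and with 0.91 ± 0.09 (adjusted p = 2.16e-09) its fitted value lay beside that of Klf2 (0.85 ± 0.13). The difference between them was not tested. The populations did not overlap for either factor. Inpp5d went from 203 to 256 CPM in CDK2-hi to 270 to 354 CPM in CDK2-low cells (0.25 ± 0.02, adjusted p = 1.49e-09) and Pik3r1 from 52.8 to 67.6 CPM to 72.2 to 91.5 CPM (0.33 ± 0.04, adjusted p = 4.61e-08). Again no mouse of one population reached the other.

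Klf2 spanned 9.61 to 16 CPM (median 12.4) in CDK2-hi and 17.0 to 51.7 CPM (median 29.2) in CDK2-low cells (0.85 ± 0.13, adjusted p = 1.6e-06). The highest mouse, at 51.7 CPM, stood apart from the others, which reached 30.1 CPM, and its genes of naive and memory B cells summed to 624 CPM, against 397 to 529 CPM in the others. Without this mouse the Klf2 difference was 0.70 ± 0.10 (adjusted p = 7.95e-07). Sesn3 rose from 74.2 to 94.0 CPM to 108 to 128 CPM (0.26 ± 0.03, adjusted p = 5.15e-08) and Tsc22d3 from 12.4 to 17.7 CPM to 18.7 to 30.1 CPM (0.38 ± 0.08, adjusted p = 7.07e-05), both without overlap. Sesn1 was the weakest, with overlapping ranges of 32.7 to 53.3 and 41.4 to 61.4 CPM and a log2 fold change of 0.11 ± 0.04 (adjusted p = 0.03), and it fell short of the threshold without any of 3 of the mice (highest adjusted p = 0.141). It lost its call in 6 of 17 alternatives and went to -0.07 in G2–M cells.

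Ccng2, the cyclin gene, was lower in CDK2-low cells. It spanned 41.6 to 48.9 CPM (median 44.7) in CDK2-hi and 21.9 to 29.0 CPM (median 23.4) in CDK2-low cells, with no overlap and a log2 fold change of -1.05 ± 0.05 (adjusted p = 9.97e-16). CDK2-low cells were 52.7% to 63.2% G0–G1 and 6.65% to 12.6% G2–M, and CDK2-hi cells 12.6% to 19.2% G0–G1 and 45.8% to 57.9% G2–M. CDK2-low cells also held more UMIs in all, with medians of 10563 to 14838 per cell against 8929 to 11687 in CDK2-hi cells. Counted per cell, they held more UMIs of the 8 genes and fewer of Ccng2, with no overlap for any of the 9. Each population was 1 library, so counts per cell also carry the depth of the library. The same counts over all genes were not computed. Foxo1 averaged 3.83 UMIs per CDK2-low cell and 1.87 per CDK2-hi cell.

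**Figure D3:**
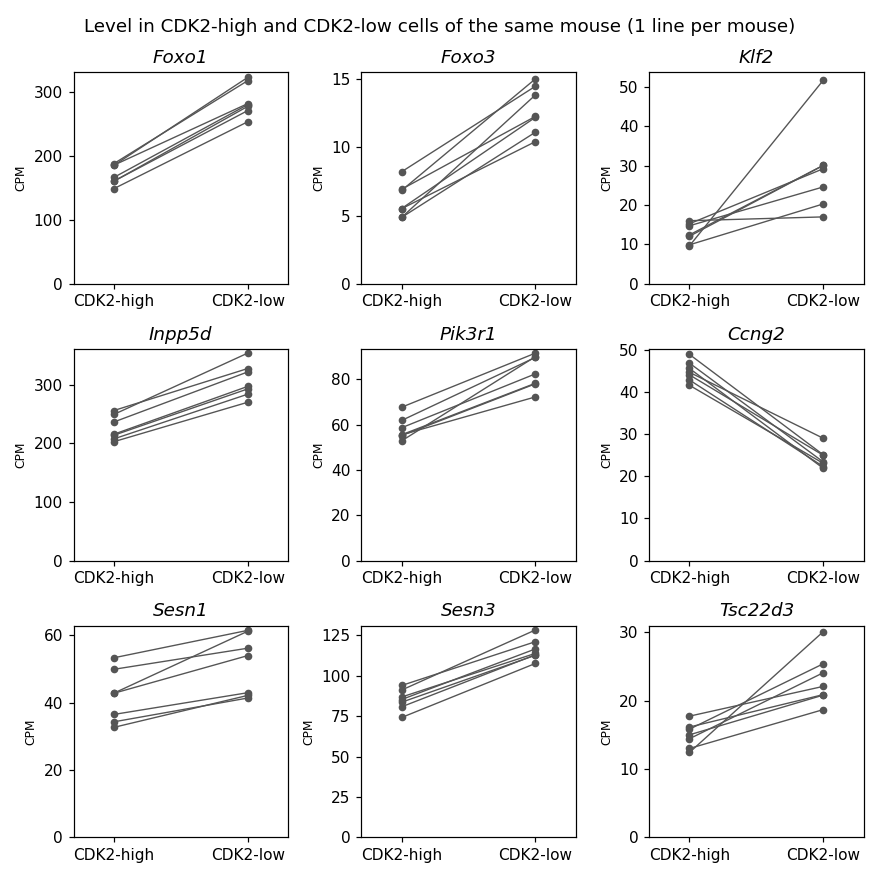
Level of each gene in CPM (vertical axis, from 0) in CDK2-hi and CDK2-low cells (horizontal axis), with 1 line for each of the 7 mice. Every line rises for 8 genes, Klf2 with 1 steep line up to 51.7 CPM, and every Ccng2 line falls, from 41.6 to 48.9 CPM down to 21.9 to 29.0 CPM.

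The CDK2 populations also differed within each called phase. Phases were scored in each library separately, so a phase called in CDK2-hi cells need not match the same call in CDK2-low cells. A difference within a phase and a difference in the phase call cannot be told apart here. Within G0–G1 cells all 9 genes were called and all were higher in CDK2-low cells, where 62.4% of 8949 genes were called, 31% higher and 31.4% lower. Inpp5d rose by 0.66 ± 0.05, Foxo1 by 0.60 ± 0.05, Foxo3 by 0.76 ± 0.17, Sesn1 by 0.58 ± 0.09, Sesn3 by 0.57 ± 0.06, Tsc22d3 by 0.54 ± 0.13 and Pik3r1 by 0.44 ± 0.07. Klf2 was the marginal case at 0.38 ± 0.17 (adjusted p = 0.0459, higher in 6 of 7 mice). The other mouse went from 52.6 CPM in CDK2-hi to 18.3 CPM in CDK2-low cells, and without it the value was 0.73 (adjusted p = 2.41e-06). Leaving out any 1 of the other 6 mice lost the call. An alternative took the 40% of cells with the lowest share of cell-cycle UMIs in each library, and there the value was 1.29. Only 12.6% to 19.2% of CDK2-hi cells were called G0–G1, so that alternative was not limited to G0–G1 cells.

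Ccng2 turned with the called phase, under the same limit of separate scoring. In G0–G1 cells it averaged 15.2 ± 4.61 CPM in CDK2-hi and 33.2 ± 2.83 CPM in CDK2-low cells (SD, n = 7), a rise of 0.97 ± 0.12 (adjusted p = 8.22e-10), on 4 to 40 UMIs per mouse in the CDK2-hi cells. In S cells it averaged 33.6 ± 2.79 and 13.3 ± 3.31 CPM (-1.48 ± 0.10, adjusted p = 2.32e-15), and in G2–M cells 61.9 ± 2.83 and 26.6 ± 8.81 CPM (-1.41 ± 0.12, adjusted p = 3.49e-12). The populations did not overlap in any phase. In S cells the other 8 genes were all called higher, where 62.3% of genes were called, 31.9% higher and 30.4% lower. In G2–M cells, where 51% of genes were called, 25.4% higher and 25.6% lower, Foxo1 (0.21), Foxo3 (0.89), Klf2 (0.76) and Pik3r1 (0.31) were called higher and Inpp5d lower (-0.29 ± 0.06, adjusted p = 7.18e-05). Sesn1 (-0.07), Sesn3 (-0.14) and Tsc22d3 (0.30) did not pass there.

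**Figure D4:**
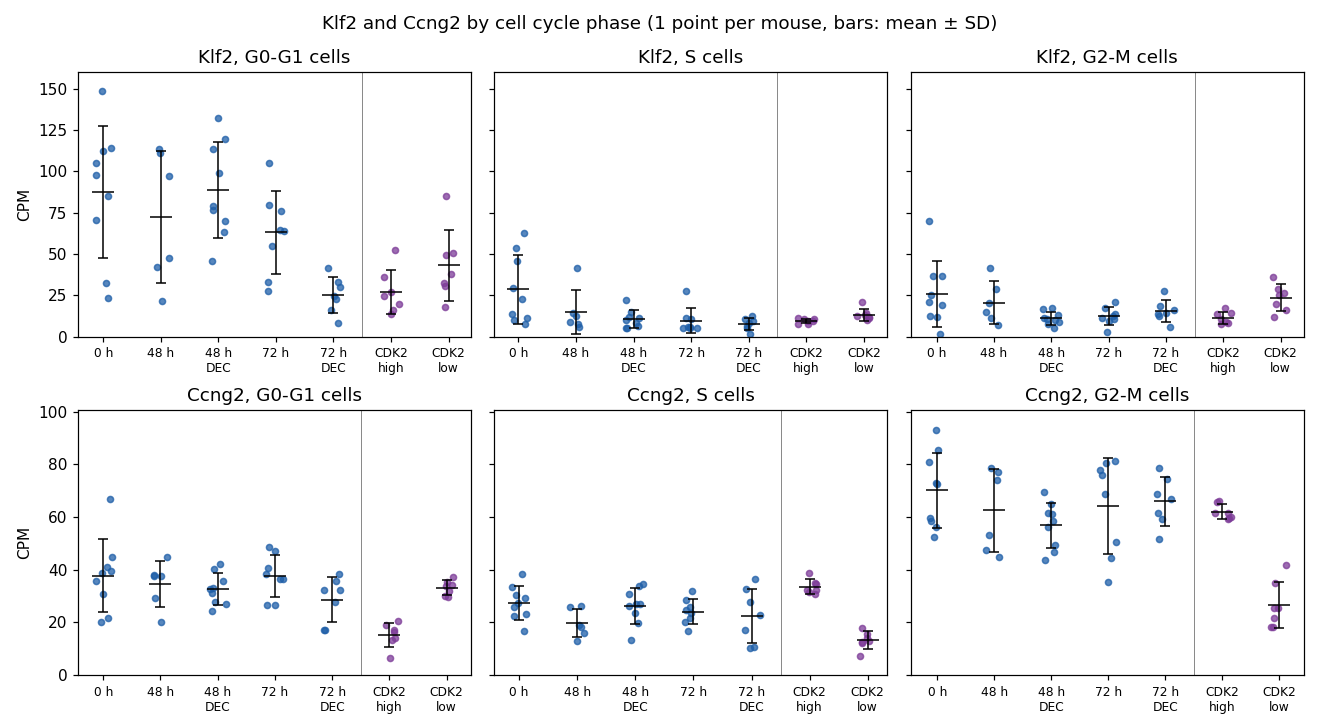
Klf2 (top) and Ccng2 (bottom) in CPM (vertical axis, from 0) within G0–G1, S and G2–M cells, by group (horizontal axis), with 1 point per mouse and bars for the mean ± SD. Klf2 has its highest mean in G0–G1 cells in every group, and there it is lowest at 72 h after treatment (25.2 CPM, against 63.1 CPM untreated), while Ccng2 is highest in G2–M cells except in the CDK2-low population (26.6 CPM against 33.2 CPM in G0–G1).

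Of 24 genes of the PI3K, AKT and mTORC1 pathway, 6 rose and 8 fell at 48 h, and 12 were higher and 6 lower in CDK2-low cells. Of all genes, 26.3% rose and 21.1% fell at 48 h, and 38.6% were higher and 36.5% lower in CDK2-low cells, so that the share of the list that rose at 48 h was near that of all genes. Pik3cb, a catalytic subunit, rose most at 48 h (0.52 ± 0.14) and was lower in CDK2-low cells (-0.92 ± 0.09). The same signs held for Akt1 (0.27 and -0.10), Rheb (0.23 and -0.64), the activator of mTORC1, and Rps6kb1 (0.25 and -0.25), the S6 kinase. The kinase gene Sgk3 went the other way (-0.50 and 0.65), as did Rictor of mTORC2 (-0.30 and 0.46). The median of the list was -0.08 at 48 h and 0.05 between the CDK2 populations, close to those of all genes (0.01 and 0.03). At 72 h, 3 of the 24 were higher with treatment, where 4.67% of all genes were, led by Pik3cg (0.47 ± 0.09, adjusted p = 0.000497).

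Of 11 other brakes on PI3K and mTORC1 that could be tested, 4 fell and 0 rose at 48 h, and 7 were higher and 0 lower in CDK2-low cells, where 21.1% of all genes fell and 38.6% were higher. Ddit4, a stress-induced inhibitor of mTORC1, fell by 0.83 on the log2 scale and was 1.41 higher in CDK2-low cells, and Inpp4b, another lipid phosphatase gene, fell by 0.69 and was 0.95 higher. At 72 h Inpp4b was lower with treatment (-0.34 ± 0.08). Of 10 genes related to the 9 by family or as regulatory subunits of PI3K, 5 fell at 48 h and 0 rose. Pik3r5 fell most (-0.97 ± 0.24). Of all genes, 21.1% fell and 26.3% rose at 48 h. In CDK2-low cells 4 of 8 were higher, where 38.6% of all genes were, led by the third sestrin gene Sesn2 (0.78 ± 0.12).

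Of 19 other genes known as FOXO targets, 2 rose and 4 fell at 48 h, with Il7r falling most (-2.87 ± 0.83) and Cited2 rising most (0.34 ± 0.05), and of 17 tested between the CDK2 populations 6 were higher and 3 lower, with Fbxo32 at 1.04 ± 0.20 and Gadd45a at -0.62 ± 0.07. Of all genes, 26.3% rose and 21.1% fell at 48 h, and 38.6% were higher and 36.5% lower in CDK2-low cells. A difference between the list and all genes was not tested. Btg1 (-0.54 and 0.62) and Bcl6 (-0.20 and 0.49) fell at 48 h and were higher in CDK2-low cells, while Cat (0.19 and -0.10) and Cited2 (0.34 and -0.08) rose at 48 h and were lower there. Of 6 glucocorticoid-response genes, Ddit4 alone was called at 48 h, and between the CDK2 populations 3 were higher and 2 lower, Fkbp5 at -0.68 ± 0.05. Genes of light zone activation fell in 8 of 9 cases at 48 h, with Cd83 at -1.13 ± 0.07 and Egr3 at -2.24 ± 0.37, and 8 of 9 were higher in CDK2-low cells, with Cd86 at 1.10 ± 0.03. Their part in the results for the 9 genes was not tested.

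The genes whose level over the 39 mice ran closest to each of the 9 were found by Pearson correlation of log2(CPM + 1) after the mean of each experiment was taken away. The mice share pools, depth and group differences, and the values are descriptions. Foxo1 was most like Syk (r = 0.926), the kinase of the B cell receptor, Inpp5d like Tmem131 (0.889), Pik3r1 like Traf5 (0.871), Foxo3 like B3gnt5 (0.847), Sesn1 like Vps41 (0.742), Sesn3 like Ablim1 (0.890) and Tsc22d3 like Crat (0.848). Klf2 was most like Anxa6 (0.795), Gpr183 (0.788) and Jun (0.746). For Ccng2 no gene passed 0.629 (Dxo).

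A separate experiment held 3 mice per group at day 7, day 10 untreated and day 10 after anti-DEC-OVA, with transferred cells carrying an H2B–mCherry division tracker, from which treated cells were sorted as mCherry-low. It was shallow, with medians of 1414 to 1992 UMIs per cell. No gene of the 9 was called between treated and untreated mice at day 10 by edgeR or DESeq2, with 1 at an unadjusted p under 0.05, where 1.95% of 9078 genes were called, 0.826% higher and 1.12% lower. That gene was Foxo1, at 180, 212 and 215 CPM in untreated and 166, 167 and 183 CPM in treated mice (log2 fold change -0.24 ± 0.08, 95% interval -0.40 to -0.07, adjusted p = 0.186). The ranges overlapped. Inpp5d, the gene called at 72 h in the time course, was at 0.08 here (95% interval -0.08 to 0.24).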

How the data were processed

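Single-cell 5′ gene expression (10x Genomics) was measured in pooled GC B cells whose mice were marked by hashtag antibodies. The deposited counts are whole-number UMI counts per gene and cell and per hashtag and cell, which the authors made with Cell Ranger on mm39. The submitters' processing notes name Cell Ranger 6.0.1 and Seurat 5.1.0, while the file headers give Cell Ranger 8.0.1 (7.1.0 for the separate mCherry experiment). Mice and their groups came from the deposited index of hashtags. Doublets were removed only as cells with more than 1 hashtag. Deposited immunoglobulin contigs were used only to pick B1-8hi pairings for an alternative, while the paper analysed only cells with that pairing. It was found in 9219 of 13625 retained cells of the larger and 4372 of 10073 of the smaller experiment. The CDK2 libraries had it in 4734 of 7503 CDK2-hi and 2728 of 4385 CDK2-low cells, and the separate mCherry experiment in 583 of 10681 cells. The letters C and N of the CDK2 libraries were read as cytoplasmic and nuclear from the study's methods, and the groups Day7, Day9 and Day10 as days after immunization.

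Cells were assigned to mice with HTODemux (Seurat 5.3.0, positive quantile 0.99) and retained from 200 detected genes upward if mitochondrial UMIs did not exceed 10%. This left 23698 cells in the time course, 11888 in the CDK2 libraries and 10681 in the separate experiment. Each was given a phase by CellCycleScoring, which was run on each pool separately. UMIs were summed per mouse, filtered with filterByExpr, scaled by TMM and tested with edgeR 4.0.16 (quasi-likelihood) in R 4.3.3 with Benjamini-Hochberg adjustment. The time course had 1 fit of all groups with a term for the experiment. CDK2-low and CDK2-hi cells, and G0–G1 and cycling cells, were paired by mouse, since the same hashtag marks the same animal in both. CPM are not TMM-scaled, and 95% intervals are 1.96 SE on either side. Each time-course mouse held 1984426 to 13373185 UMIs. The fitting was tested on simulated data.

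The 9 genes and the gene lists were chosen with earlier results of these data known. All 9 are reported. From the lists, genes with the largest rise or fall past the threshold, or with a mean log2 CPM above 4 and called both at 48 h and between the CDK2 populations, could be named, and up to 3 like genes per gene. Alternatives were DESeq2 1.42.0, other scalings, filters, hashtag rules, models and subsets of cells. The fits within S and G2–M cells, within G0–G1 cells for comparisons other than those at 48 h and between the CDK2 populations, without 1 mouse and without TMM were chosen after seeing the data. Transcripts of the immunoglobulin heavy-chain locus, some genes of the lists and a check that left out cells by such genes are not reported here.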

Additional observations from a re-analysis of the deposited data

Results flagged for a closer look

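In 63 sets of a gene and a group of 6 to 9 mice, 2 had an extreme mouse by Dixon's criterion. Chance gives about 1 in 20. At 0 h, 1 mouse held 52.4 CPM of Tsc22d3 and the next 27.2 CPM. In CDK2-low cells, 1 mouse held 51.7 CPM of Klf2 and the next 30.1 CPM.

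The effect of anti-DEC-OVA differed between 72 h and 48 h, by a test of the difference itself (edgeR), for Pik3r1 (0.34 on the log2 scale), Sesn3 (0.33), Foxo1 (0.27) and Inpp5d (0.19), with the higher effect at 72 h in each case. None of the 4 was called within S cells or within G0–G1 cells, where Foxo1 stood at -0.0071 and -0.047.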

How the results depend on the processing

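Of the counts of called genes recomputed under each alternative, 134 stayed within 1.5 times the reported count, 24 were lower and 4 higher. Of single genes, 501 values kept their direction and side of the threshold, 96 kept the direction only and 6 reversed. Treated against untreated mice at 48 h gave 6 calls, with 7 under library-size scaling (all lower), 2 in the smaller experiment alone, 3 in G2–M cells and 1 in S cells (a rise of Ccng2). At 72 h the count of 1 became 2 with the highest hashtag, with no filter on low counts, with only the groups compared or without 1 mouse at 0 h, and 0 with no term for the experiment, in the smaller experiment alone or in G2–M cells. From 48 h to 72 h after treatment the count of 5 became 3 with no term for the experiment, 2 in S cells and 1 in G0–G1 cells, where 0 of the 5 rises were called, the call was a fall of Klf2 and Foxo3 went to -0.20. The 3 calls between 0 h and 72 h became 1 with no filter on cells, in S cells and in G2–M cells, and 0 in B1-8hi pairings, under RLE or library-size scaling, with no term for the experiment, with only the groups compared, in the smaller experiment alone, in G0–G1 cells, and without 1 mouse at 0 h. The difference between the treatment effects, with 4 calls, gave 1 with no term for the experiment and in the smaller experiment alone, 0 in S cells and 1 in G0–G1 cells, which was not among the 4 but lower (Klf2), with Foxo1 at -0.0071 in S and -0.047 in G0–G1 cells. Between the CDK2 populations, G2–M cells gave Inpp5d at -0.29, Sesn1 at -0.073 and Sesn3 at -0.14. Without the block that pairs the 2 populations of a mouse, 8 of 9 genes were called, Sesn1 being lost (adjusted p = 0.398), and leaving out each mouse gave 8 to 9 calls, in G0–G1 cells too. In the separate experiment leaving out each mouse gave 0 calls. The causes of these changes were not tested. Subsets hold fewer cells and UMIs, and Foxo3 rests on 20 to 125 UMIs per mouse in the time course.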
